A study of Mus musculus with 12 samples.

Results

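Mammary tumours of 2 mouse strains, YB and YD, were compared with each other by gene expression array. The 4 pools of tumour RNA titled YB or YD, 2 of each strain, were taken from the 12 pools of a series of 6 strains. The other 8 pools did not enter the YB and YD means. They entered the estimate of the spread between pools and the filter on dim probes, and their levels are given for comparison. All 6 strains carry the neu NDL transgene, an activated form of the rat receptor ErbB2 (neu), under the mouse mammary tumour virus (MMTV) promoter. The parental strain NDL2-5, written NDL25 here, carries it without further change, and the remaining 5 strains (NYPD, YB, YC, YD, YE) have altered tails. All animals were female and had borne tumours for 6 weeks. In each strain RNA of 10 tumours was combined in equal amounts into 2 pools of 5 tumours, which serve as the biological repeats. Pooling hides the spread between single tumours, and with 2 pools in a strain the p-values measure only the spread between pools.

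As background, ErbB2 is a receptor tyrosine kinase without a known ligand of its own that signals through phosphorylated tyrosines in its tail. The NYPD receptor lacks the main tail autophosphorylation sites, and YB and YD each have a single site put back. The YB site is known to recruit the adaptor Grb2 and the YD site the adaptor Shc, and both adaptors feed the Ras and ERK pathway. The comparison asks how tumours driven by these 2 single-site receptors differ from each other in expression. The MMTV promoter is most active in mammary epithelium and is also known to be active in salivary gland.

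Each pool was set against a commercial reference, Universal Mouse Reference RNA, made from mouse cell lines, on a pair of Agilent 2-colour arrays with the dyes exchanged. A level is the log2 ratio of tumour over reference for a pool, and a difference is the mean of the YB pools minus the mean of the YD pools. A difference of 1 is a doubling. Each gene is represented by its brightest probe, and a gene passed at an adjusted p under 0.05 (limma, joint fit of 12 pools, Benjamini-Hochberg over 28347 genes). A value after ± is the standard error (SE) of a difference, with n = 2 pools in each strain. The 8 arrays of YB and YD had median tumour-channel signals of 462.2 to 756.6 intensity units above local backgrounds of 39 to 48. The number of pools limits the precision. The direction of the ratio is likely and not stated in the labels: it rests on 13 mammary tumour genes and on the deposited ratios. A list of genes chosen for the reference RNA leaned to the tumour side on all 24 arrays, which is the opposite of that direction. The lean was small, with array medians of 0.00906 to 0.188 in size on the log2 scale. Those of the mammary tumour genes were 1.28 to 3.77 in size. In the reference list 1 gene, Afp, lay on the reference side. With the direction turned, every higher would read lower and the counts below would be 139 higher and 939 lower.

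The median of the luminal epithelial markers was above the reference in all 4 pools, though salivary epithelium is known to share several of them. Among 20 luminal genes, Cdh1 (E-cadherin) stood at 4.94 and 5.03 in the YB pools and 4.77 and 5.04 in the YD pools, and Elf5, a luminal transcription factor, at 4.67 and 5.02 against 4.61 and 4.92. The luminal median was 1.68 and 1.48 in YB pools 1 and 2, and 1.57 and 1.46 in YD pools 1 and 2. Not every member was high: Muc1, an apical mucin, stood at 0.38 and 0.65 in YB and at 0.0176 and -0.00499 in YD. The pools of a strain were not equally alike. After removal of each gene's mean over 12 pools, the YB pools correlated at 0.286 across genes and the YD pools at 0.0462. YD pool 1 correlated at 0.526 with YC pool 1, and YD pool 2 at 0.532 with YC pool 2. These are correlations across genes, which are not independent replicates. The array images of all YB pools were read by the scanner software on a different day from those of all YD pools, so strain and day of image reading cannot be told apart within these 4 pools.

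All 6 strains carry the neu transgene, so the level of Erbb2, the gene of the transgene, is a description and cannot check the strain labels. Its brightest probe stood at 1.85 and 4.19 in YB pools 1 and 2, and at 3.55 and 3.97 in YD pools 1 and 2. The groups overlapped, because YB pool 1 was the lowest and YB pool 2 the highest of the 4. The difference was -0.74 ± 0.85 (limma, adjusted p = 0.709), and without YB pool 1 it was 0.43. The other 2 probes of Erbb2 gave differences between -0.02 and 0.12. A separate record of the rat transgene was not analysed here.

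Between the strains, 1078 of 28347 genes passed (3.8%), of which 939 were higher in YB (3.31%) and 139 lower (0.49%). A change of 2-fold or more was seen in 133 genes higher (0.469%) and 20 lower (0.0706%). The median difference over all genes was -0.00414 and the median SE 0.109. Both YB pools lay on the same side of both YD pools for 48.2% of all genes tested, and for every gene that passed. Of the 133 genes that were 2-fold higher, 129 had a YB mean above the means of all other 4 strains. Among all genes with a difference above 0 this held for 48.2%. In 15 of the 133 the YD mean was below the other 4 strains. Of the 20 that were 2-fold lower, 16 had a YB mean below the other 4 strains and 8 a YD mean above them. Among all genes with a difference below 0 the YD mean was above the other 4 strains for 22.6%. For the 15 with a low YD mean and the 16 with a low YB mean no share over all genes was computed. Those counts are therefore descriptions only.

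**Figure D1:**
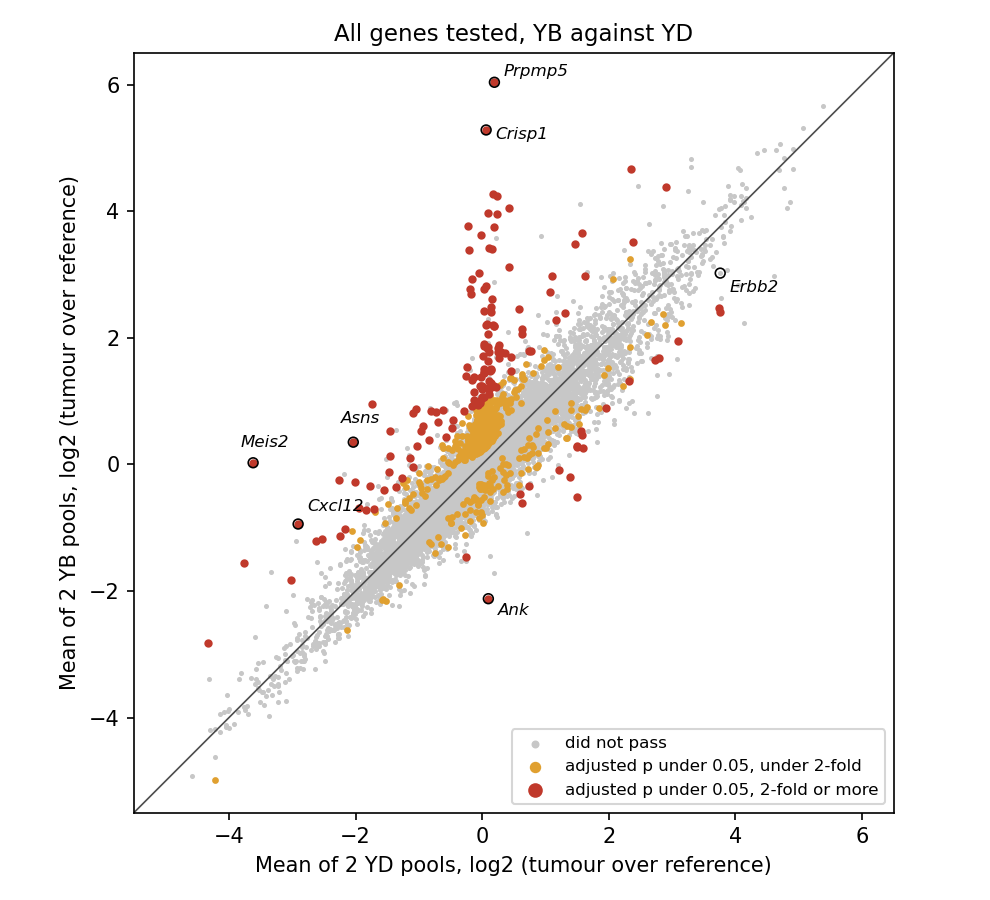
Mean level of each gene in the 2 YB pools (vertical axis) against that in the 2 YD pools (horizontal axis), both as log2 of tumour over reference, for 28347 genes. Grey points did not pass, orange points passed with less than a 2-fold change and red points passed with 2-fold or more; the red column above a YD level of 0 holds genes such as Prpmp5 and Crisp1, with 133 red points above the diagonal and 20 below.

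The count rests on few pools. It was 100 without YD pool 1 and 83 without YD pool 2 (61 and 53 by 2-fold or more), 707 without YB pool 2, 649 with 1 NDL25 pool left out, 638 with 1 YE pool and 589 with 1 YC pool, and it was 4 when only the YB and YD pools were fitted. Without YB pool 1, 320 genes passed as lower in place of 139. With the day of image reading as a term, which the YC pools alone make estimable, 6 genes passed. In each of the 12 fits that left out 1 pool the same 72 genes passed, 69 higher and 3 lower. Among the 15 largest rises named below 11 were in this set, and among the 15 largest falls 1 was, Stac2.

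**Figure D2:**
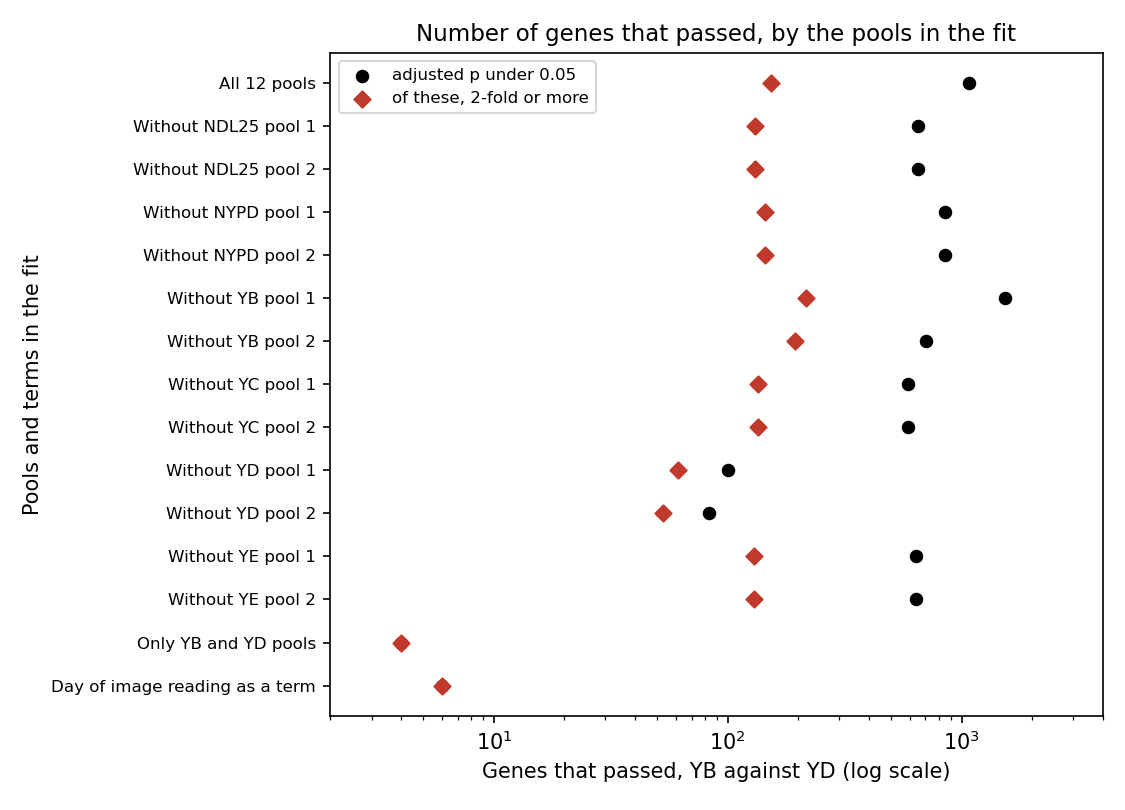
Number of genes that passed (black circles) and number that also changed 2-fold or more (red diamonds), on a log scale, for the fit of all 12 pools, the fits that left out 1 pool, the fit of the YB and YD pools alone and the fit with the day of image reading as a term. Leaving out a YD pool lowered the count most among the single pools, to 83 and 100, and only 4 and 6 genes passed in the bottom rows, where both symbols coincide.

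The smaller rises were spread over probes of all signal levels. Of the 939 genes that passed as higher, 491 differed by less than 0.5 on the log2 scale, and 523 had a mean signal below the median of all genes, compared with 38 of the 139 that passed as lower. With genes split into 4 equal groups by mean signal, from dim to bright, 2.64%, 4.74%, 4.25% and 1.62% passed as higher. Genes of olfactory, vomeronasal and trace amine receptors, a set chosen after values were seen because mammary tissue is not known to use them, held 87 of 970 that passed as higher (8.97%) and 0 lower, where 3.31% of all genes passed as higher. Their median difference was 0.06, against -0.00414 for all genes, and their median signal (8.99 on the log2 scale) was near that of all genes (9.17). Fewer of these receptor genes passed without either YD pool, without YB pool 2 or without any single pool of the other strains. More passed without YB pool 1. The number of all genes that passed as higher moved in the same direction in each of these fits. With the day of image reading as a term 0 receptor genes passed. The genes described below are mostly those with a change of 2-fold or more.

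The largest rises were of secreted proteins of saliva. The salivary proline-rich protein genes Prpmp5, Prb1, Prp2 and Prh1 passed, and these 4 lie within 10 protein-coding genes of each other in the RefSeq annotation. They encode abundant secreted proteins that bind dietary tannins. Prpmp5 stood at 5.98 and 6.10 in the YB pools and at 0.23 and 0.16 in the YD pools, with the 8 pools of the other strains between 0.02 and 0.45. The groups were far apart, and the difference of 5.84 ± 0.07 was the largest among all genes named here (limma, adjusted p = 2.49e-08), a 57.4-fold ratio. In raw signal the Prpmp5 spot read 31628 intensity units in the tumour channel of the YB arrays and 123.6 in that of the YD arrays. Its reference channel read 351 and 92.2, though both strains were set against the same reference RNA. The size of the ratio is therefore uncertain.

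The stretches of 100 bases just before the annotated starts of these genes, from RefSeq (GRCm38.p6), are shown because the 4 genes moved together and form pairs of near copies. Over their whole RefSeq start windows Prb1 and Prpmp5 were 96.6% identical, and Prh1 and Prp2 97.4%, where both sequences of a pair run, while Prb1 and Prh1 were 61.2% identical. Each is printed 5′ to 3′ in the direction of its gene, with TATAAA (the TATA box letters), or TGACAG (letters of a MEIS-type site), in capitals on either strand.
Prb1, chr6:132210522-132210621, minus strand: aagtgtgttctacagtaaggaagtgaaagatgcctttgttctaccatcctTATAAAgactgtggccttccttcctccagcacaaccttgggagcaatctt
Prpmp5, chr6:132314744-132314843, minus strand: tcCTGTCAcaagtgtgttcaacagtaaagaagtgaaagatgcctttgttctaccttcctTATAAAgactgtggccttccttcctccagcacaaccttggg
Prh1, chr6:132569742-132569841, plus strand: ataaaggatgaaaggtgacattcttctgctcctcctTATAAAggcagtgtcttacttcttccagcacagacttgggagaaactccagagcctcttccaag
Prp2, chr6:132595811-132595910, plus strand: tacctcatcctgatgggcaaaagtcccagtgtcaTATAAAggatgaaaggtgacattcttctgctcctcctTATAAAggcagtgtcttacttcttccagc
Crisp1, chr17:40319208-40319307, minus strand: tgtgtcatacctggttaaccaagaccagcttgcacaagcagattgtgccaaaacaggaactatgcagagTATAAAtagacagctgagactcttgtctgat
All 5 windows, Crisp1 included, hold TATAAA at least once, and so do 5.56% of 32851 windows of the same length. TGACAG, searched as TGACAG and as its reverse complement, occurs in the Prpmp5 window and in 6.39% of all windows. TAATCC (letters of a PITX-type site), searched in the same way, occurs in 0 of the 5 windows and in 2.3% of all windows. A match of letters is a description and not a binding site, and no measurement here bears on factors at these starts.

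Near copies can share a hybridisation probe's signal, so the values of single proline-rich protein genes are uncertain. Prb1 stood at 4.56 and 3.93 in YB against 0.34 and 0.13 in YD, a difference of 4.01 ± 0.18 (limma, adjusted p = 5.62e-05). Prp2 stood at 3.74 and 4.37 against 0.43 and 0.43, and differed by 3.63 ± 0.18 (limma, adjusted p = 0.000107). Prh1 stood at 2.44 and 4.34 against -0.14 and -0.27, with a difference of 3.59 ± 0.49 (limma, adjusted p = 0.012). In all 3 both YB pools were above every other pool of the series. The Prb1 and Prp2 spots were saturated on 2 of the 4 YB arrays each.

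Other secreted proteins of glands rose with them. Crisp1, a cysteine-rich secretory protein of epididymis and salivary gland, stood at 5.20 and 5.37 in YB and at 0.06 and 0.06 in YD, and differed by 5.22 ± 0.07 (limma, adjusted p = 3.84e-08). Bpifb1, a secreted BPI-fold protein of airway and mouth, stood at 3.64 and 3.63 against -0.00 and -0.03, a difference of 3.64 ± 0.06 (limma, adjusted p = 8.3e-08). Dnase1, a secreted endonuclease, stood at 3.10 and 4.83 against 0.10 and 0.09, and differed by 3.87 ± 0.44 (limma, adjusted p = 0.00671). Cst10, a cystatin-family protease inhibitor, stood at 3.25 and 4.67 against 0.27 and 0.21, and its fitted difference was 3.72 ± 0.41 (limma, adjusted p = 0.00613). In each of these genes the groups did not overlap, and for Dnase1, Cst10 and Prh1 the YB pools differed from each other by more than 1 on the log2 scale. Cst10 was saturated on all 4 YB arrays, so its YB level is only a lower bound and its place by size is uncertain. Also saturated were Dnase1 and Bpifb1 on 2 and Crisp1 on 1 of these arrays. As for Prpmp5, the reference channel read higher on the YB than on the YD arrays for Prb1 (2377 and 99.5) and Cst10 (3317 and 292). The same held for Crisp1 (783 and 167) and Bpifb1 (1261 and 276). Among the 15 largest rises this channel read lower on the YB arrays for Prh1, Sfxn4 and Ccl20. The sizes and order of these ratios are therefore uncertain, and the cause was not tested. Sbp, a spermine-binding secreted protein, stood at 3.24 and 2.80 against -0.08 and -0.03 (difference 3.07 ± 0.12), but its dimmer second probe differed by -0.11.

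**Figure D3:**
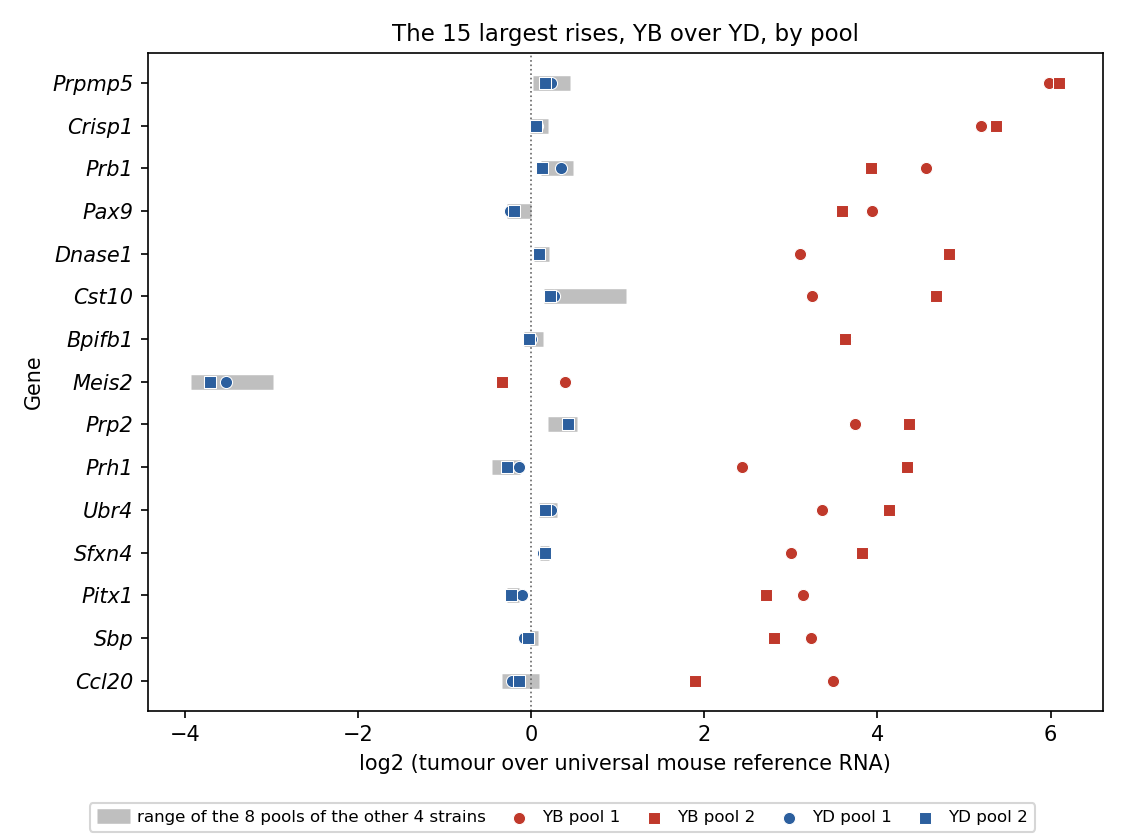
Level of the 15 largest rises (log2 of tumour over reference, horizontal axis) in each YB pool (red) and each YD pool (blue), with circles for pool 1 and squares for pool 2; the grey bars span the 8 pools of the other 4 strains. In all 15 genes both YB pools lie to the right of both YD pools and of the grey bar, and the YD pools lie at or near the bar.

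As a list, 17 of 22 salivary secreted protein genes were measured, and 10 passed, all higher in YB, where 3.31% of all genes passed as higher. The list was chosen with earlier results of these data known, so this share is a description and not an independent test. The median of the 17 differences was 3.07. The median level of the list was 3.10 and 3.70 in YB pools 1 and 2, 0.23 and 0.13 in YD pools 1 and 2, and 0.09 to 0.32 in the means of the other 4 strains. Amy1 (salivary amylase, fitted at 2.70 ± 0.17 but saturated on all 4 YB arrays and so only a lower bound in YB) and Lpo (lactoperoxidase, 1.20 ± 0.15) passed with 8 described above (the 4 proline-rich protein genes, Crisp1, Bpifb1, Dnase1 and Sbp); a second probe of Amy1 differed by -0.16. The 7 that did not pass include Pip, prolactin-induced protein, at 2.09 and 5.06 in YB and 0.30 and 0.13 in YD (adjusted p = 0.102). They also include Dcpp1 of the demilune cells, at 3.53 and 3.70 against 4.22 and 3.39, and Smgc of the submandibular gland, at -0.11 and 0.54 against -0.12 and -0.04. Aqp5, the water channel of secretory acini, differed by 0.33 and Bhlha15, an acinar cell transcription factor, by 0.41, and both were above 2.7 in all 4 pools. Without YD pool 1 or YD pool 2, 7 of the 17 passed in either case. With the day of image reading as a term 3 passed, and so did 3 when only the YB and YD pools were fitted.

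A few patterning transcription factors were also higher in YB, with differences that overlapped in size with those of the salivary genes. Of 22 oral, branchial and limb patterning factors 21 were measured, 4 passed as higher, where 3.31% of all genes did, and 17 did not pass. The median of the list was 0.03. This list too was chosen with earlier results of these data known, so its share is a description. At least 4 passed in each fit that left out 1 pool, 1 with the day of image reading as a term and 0 when only the YB and YD pools were fitted. Pax9, a paired-box factor needed for teeth and pharyngeal pouches, stood at 3.94 and 3.59 in YB and at -0.24 and -0.20 in YD, a difference of 3.99 ± 0.10 (limma, adjusted p = 2.02e-06). Pitx1, a homeobox factor of the oral ectoderm and the hindlimb, stood at 3.14 and 2.71 against -0.10 and -0.23, and differed by 3.09 ± 0.12 (limma, adjusted p = 3.5e-05). Meis2, a homeobox cofactor, stood at 0.39 and -0.34 against -3.52 and -3.71, and differed by 3.64 ± 0.23 (limma, adjusted p = 0.000435). Sox2, a factor of foregut and oral progenitors, stood at 1.61 and 1.16 against -0.12 and -0.13, and differed by 1.52 ± 0.15 (limma, adjusted p = 0.00386). No other pool of the series reached a YB pool in any of the 4. The second Meis2 probe differed by 2.82. The list's other members include Dlx3, Dlx5 and Dlx6, homeobox factors of the jaw and limb, which differed by 0.01 to 0.14 and did not pass.

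In bulk RNA, a change in the share of a cell type and a change of RNA within cells cannot be told apart. The 10 salivary genes and 4 patterning factors passed as higher in YB, so their sharing of the 2 YB pools follows from the selection. The part of salivary tissue or of a salivary type of cell in either set was not tested.

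The remaining genes among the 15 largest rises were Ccl20, Sfxn4 and the probe named Ubr4. Ccl20, a chemokine that draws CCR6-bearing lymphocytes and dendritic cells, stood at 3.49 and 1.89 in YB and -0.22 and -0.14 in YD (difference 2.87 ± 0.42, limma, adjusted p = 0.0142). Sfxn4, a mitochondrial membrane protein, differed by 3.26 ± 0.21 on its brightest probe and by -0.41 on the other. The Ubr4 probe, which the files call 1810009A16Rik and RefSeq lists as a synonym, differed by 3.56 ± 0.20, and the other probe of that name by 0.01. The gene behind the last 2 differences is therefore uncertain.

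Chemokines and cytokines gave 2 of 27 measured genes higher and 0 lower, where 3.31% of all genes passed as higher. The list median was 0.26. Cxcl12, which attracts CXCR4-bearing cells and is mostly made by stroma, was below the reference in every pool, at -0.94 and -0.95 in YB and -2.70 and -3.11 in YD. The groups did not overlap, and the difference was 1.97 ± 0.18 (limma, adjusted p = 0.00295), or 1.09 on a second probe. Cxcl10, an interferon-induced chemokine, stood at 0.12 and 0.04 against -1.60 and -1.44 and did not pass (adjusted p = 0.0784).

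In the squamous, junction, luminal and basal lists 2 of 23, 2 of 24, 2 of 20 and 0 of 13 genes passed, all higher in YB, where 3.31% of all genes passed as higher. Tgm3, a transglutaminase that cross-links proteins of squamous epithelia, stood at 2.71 and 2.54 in YB and 0.15 and 0.16 in YD, and differed by 2.47 ± 0.12 (limma, adjusted p = 0.000133). Sprr2a1, a small proline-rich protein of the cornified envelope, stood at 1.69 and 2.12 against 0.05 and -0.00 (difference 1.88 ± 0.27). These were the 2 of 23 squamous genes that passed. The other 21 include the keratins Krt1, at 0.25 and 0.31 against 0.15 and 0.15, and Krt13, at -1.12 and -1.37 against -1.45 and -1.47, and the median of the list was 0.07.

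Among 24 claudins, connexins and desmosomal genes 2 passed as higher. Cldn22, a tight junction claudin, stood at 1.51 and 1.51 in YB and 0.14 and 0.15 in YD (difference 1.37 ± 0.05, limma, adjusted p = 3.5e-05). Gjb2 (connexin 26) stood at 3.38 and 3.10 against 2.27 and 2.41, and the other 4 strains had pools from 2.81 to 3.94. For Gjb2, with a difference of 0.90 ± 0.15, the YD pools were therefore the low ones of the series, and its second probe differed by 0.14. In the luminal list 2 of 20 passed: Krt7, a simple epithelial keratin, by 1.08 ± 0.13 (second probe 1.18) and Muc1, an apical mucin, by 0.51 ± 0.09 (second probe 0.66). In raw signal, before normalisation, the Muc1 tumour channel read 3007 intensity units on the YB arrays and 3375 on the YD arrays. The reference channel read 1463 and 2378, so the higher Muc1 ratio in YB came with a dimmer reference channel. Gata3, a luminal regulator, differed by -0.71 ± 0.16 (limma, adjusted p = 0.0597) and Krt19 by 1.70 ± 0.64 (adjusted p = 0.215), and neither passed. Of 13 basal and myoepithelial genes 0 passed (limma), with a median of 0.07, and 1 did without either YB pool 1 or YB pool 2. By unadjusted p under 0.05 over all genes, 5140 passed, 3282 of them higher in YB, so genes short of the adjusted threshold are many.

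In the milk list 1 of 12 measured genes passed, as higher, where 3.31% of all genes did. Ltf (lactoferrin) stood at 3.45 and 3.59 in YB and 2.14 and 2.63 in YD, a difference of 1.13 ± 0.23 (limma, adjusted p = 0.0407), with 2 of the 4 YB arrays saturated. It did not pass in 19 of 30 alternative settings. Csn1s1, a casein, stood at 3.93 and 5.72 against 3.74 and 2.85, and Lalba, alpha-lactalbumin, at 1.99 and 1.38 against 2.42 and 2.92. Neither passed, at adjusted p = 0.286 and 0.344 (limma), though in both genes the YB pools did not overlap the YD pools.

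The receptor signalling lists, which the 2 restored sites address most directly, each held 1 gene that passed, where 3.8% of all genes did. Of 24 receptor adaptors 1 passed. Grb10, an adaptor that restrains insulin and IGF receptors, stood at -1.64 and -1.30 in YB and -0.40 and -0.10 in YD, and differed by -1.22 ± 0.17 (limma, adjusted p = 0.0118). Its other probes gave -0.99 to 0.01. Grb2 itself differed by 0.24 ± 0.23 and Shc1 by -0.34 ± 0.18, and the list had a median of -0.04. Of 21 ERK feedback and output genes 1 passed. Spry1, an inhibitor of receptor tyrosine kinase signals, stood at 0.79 and 1.04 against 0.32 and 0.43 and differed by 0.53 ± 0.09 (limma, adjusted p = 0.0196). Dusp6, an ERK phosphatase, differed by -0.32 ± 0.29, and Etv5, an ERK-responsive factor, stood at -0.44 and 1.78 against 1.58 and 2.07 and did not pass. In the ErbB list 1 of 15 passed, Nrg4, a ligand of ErbB4, by 0.34 ± 0.07 (limma, adjusted p = 0.0455), and it did not pass in 23 of 30 alternative settings. In raw signal, before normalisation, the Nrg4 tumour channel read 1917 intensity units on the YB arrays and 2351 on the YD arrays. Its reference channel read 1024 and 1645. For Spry1 the tumour channel read 5473 and 5042, and the reference channel 2084 and 2763. Erbb3, the usual partner of ErbB2, stood at 3.20 and 3.35 against 3.09 and 3.52, and Egfr differed by -0.92 ± 0.28 (adjusted p = 0.137).

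The falls were smaller than the rises. Ank, a pyrophosphate transporter, stood at -2.20 and -2.04 in YB and -0.04 and 0.24 in YD, with the other 4 strains between -1.58 and -0.31. YB was thus the lowest and YD the highest of the 6 strains, and the difference was -2.22 ± 0.30 (limma, adjusted p = 0.0118). Stac2, an adaptor protein of calcium channels, stood at 1.97 and 1.93 against 3.05 and 3.14, a difference of -1.15 ± 0.10 (limma, adjusted p = 0.00222). Insl6, a relaxin-family peptide, stood at -0.20 and -0.20 against 1.36 and 1.40 (difference -1.58 ± 0.23), and C5ar2, a second receptor of complement C5a, at 2.47 and 2.33 against 3.50 and 4.01 (difference -1.35 ± 0.24). The rule that chose the 15 falls and the 15 rises required groups that do not overlap.

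For some falls the YD pools lay outside the other strains. Smoc1, a calcium-binding matrix protein, stood at 1.55 and 1.74 in YB and 2.48 and 2.96 in YD, and the other pools ran from 0.42 to 1.67, so that its difference of -1.08 ± 0.20 lay with the YD pools. Pxdc1 (-1.22 ± 0.15) and Afap1l2, an actin-filament associated protein (-1.11 ± 0.17), were lower in YB and had both YD pools above every other pool. For Afap1l2 both YB pools (0.23 and 0.72) were also below every other pool, the lowest of which was at 0.90. Psd2 differed by -1.25 ± 0.22 and Pik3cg, the catalytic subunit of PI3-kinase gamma, by -1.06 ± 0.22, and both had YB pools below every other pool of the series. The other falls were Capns1, the small calpain subunit (-1.30 ± 0.24), Slc6a2, the noradrenaline transporter (-1.34 ± 0.29), Kank4 (-1.26 ± 0.24), Apof, an apolipoprotein (-1.22 ± 0.25), and F3, tissue factor, which starts coagulation (-1.07 ± 0.21). Second probes of Kank4 and F3 gave -1.08 and -1.11. Adjusted p over the 15 falls ran from 0.00222 to 0.0479. Without YD pool 1 or YD pool 2, 1 of the 15 falls passed in either case, and 6 to 10 did without any other single pool. With the day of image reading as a term 0 falls and 4 rises passed.

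**Figure D4:**
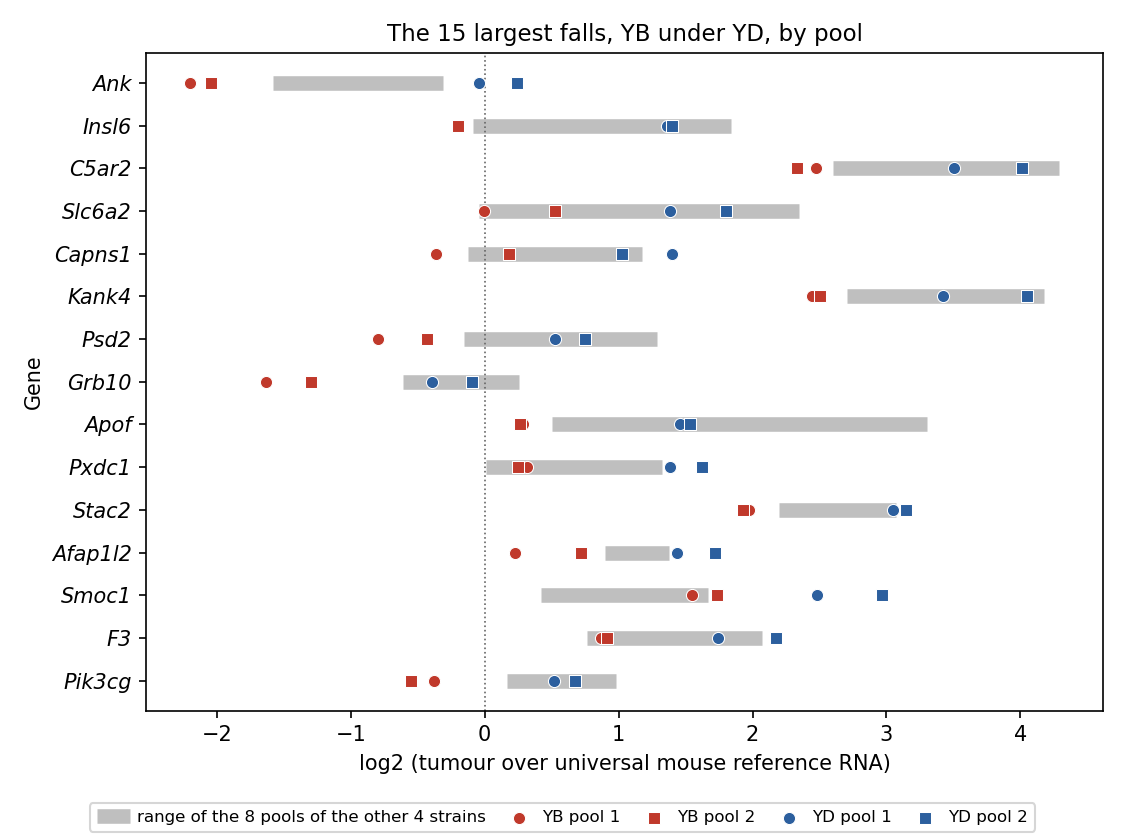
Level of the 15 largest falls (log2 of tumour over reference, horizontal axis) in each YB pool (red) and YD pool (blue), with circles for pool 1 and squares for pool 2; the grey bars span the 8 pools of the other 4 strains. Both YB pools lie to the left of both YD pools in every gene, and for Smoc1 the YB pools lie within or beside the grey bar while the YD pools lie to its right.

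Metabolic and stress lists each held 1 gene that passed, where 3.8% of all genes did. Asns, asparagine synthetase and a known target of ATF4, stood at 0.10 and 0.61 in YB and -1.96 and -2.11 in YD, and differed by 2.39 ± 0.24 (limma, adjusted p = 0.00466), the 1 of 20 ER stress and ATF4 target genes to pass (list median 0.07). The other 4 strains lay between -1.78 and -0.82, so YB was the highest strain and YD the lowest. Gsr, glutathione reductase, differed by 0.61 ± 0.09 as the 1 of 20 glutathione and NRF2 genes, while its other probes ran from 0.07 to 0.72. Srebf1, a master regulator of lipid synthesis, stood at 2.35 and 2.11 against 3.01 and 3.28 (difference -0.91 ± 0.18), 1 of 21 lipid synthesis genes, and did not pass in 15 of 29 alternative settings. Plin4, a lipid droplet protein, differed by -0.71 ± 0.14 as the 1 of 16 adipocyte genes to pass, and did not in 20 of 30 alternative settings. The adipocyte median was -0.24.

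The fibroblast, macrophage and interferon lists held no gene that passed, though most of their members lay on 1 side of 0. Of 21 fibroblast and matrix genes 19 lay above 0 and 0 passed (limma), with a median of 0.42, where the median of all genes was -0.00414. YB pool 1 stood apart there: the list's median level was 0.38 in YB pool 1, -0.65 in YB pool 2, -0.65 in YD pool 1 and -0.995 in YD pool 2. Col1a1, type I collagen, stood at 0.11 and -1.37 in YB and -1.35 and -2.29 in YD. Macrophage and myeloid markers gave 17 of 18 above 0, a median of 0.44 and 0 that passed, again with YB pool 1 at 1.75 and the other 3 pools at 0.79 to 0.87. Without YB pool 2, 5 of the 18 macrophage markers passed as higher. Erbb2 was lowest of the 4 in that same pool, as given above. Interferon response genes gave 17 of 22 below 0 and 0 that passed, with a median of -0.30 and median levels of 0.40 and 0.70 in YB and 0.46 and 1.27 in YD. The part of these cells in other differences was not tested.

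The metalloproteinase, Wnt, endothelial and T cell lists each held 1 gene that passed, where 3.8% of all genes did. Of the matrix metalloproteinases and inhibitors 1 of 22 passed, Mmp13, a collagenase. Mmp13 stood at 1.12 and 0.61 in YB and -0.72 and -0.52 in YD (difference 1.48 ± 0.26, limma, adjusted p = 0.0252). The other 4 strains, however, ran from -1.17 to 1.09. Fzd1, a Wnt receptor, differed by 1.19 ± 0.14 and was the 1 of 26 Wnt pathway genes to pass. Robo4, an endothelial guidance receptor, differed by 0.67 ± 0.15 (limma, adjusted p = 0.0482), 1 of 21 endothelial markers, of which 18 lay above 0 with a median of 0.19, and it did not pass in 18 of 30 alternative settings. Kdr, the VEGF receptor of endothelium, stood at 2.69 and 2.76 against 1.87 and 2.20 and did not pass (adjusted p = 0.0593). Of 18 T and cytotoxic cell markers 1 passed, Cd6, by 0.27 ± 0.05, with a second probe at -0.10. It did not pass in 23 of 30 alternative settings. The raw Cd6 tumour channel read 1310 intensity units on the YB arrays and 1368 on the YD arrays, and the reference channel 616 and 813.

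No gene passed in the lists for VEGF and hypoxia (23 measured, median 0.15), acute phase (15, 0.43), mesenchymal transition (18, 0.15), antigen presentation (16, -0.18), B and plasma cells (13, -0.05), proliferation (26, -0.09), skeletal muscle (16, 0.20), S100 and serpins (21, -0.00482), Schwann cells and neurons (13, 0.000594) or red cells (7, 0.18). The VEGF and acute phase lists did not stay empty without YB pool 1 or without YB pool 2. Nor did the Schwann cell list without pool 1 or the S100 list without pool 2. In the VEGF list the direction was lower in YB without pool 1 and higher in YB without pool 2. Among the members of all these lists, Mki67, a proliferation marker, stood at -1.13 and -1.38 in YB and -1.51 and -0.999 in YD. S100a9, a neutrophil protein, stood at 2.71 and 2.63 against 1.04 and 1.31, with a difference of 1.49 ± 0.77 (adjusted p = 0.36). Egln3, a hypoxia-induced hydroxylase, differed by -1.03 ± 0.28 (adjusted p = 0.0992).

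**Figure D5:**
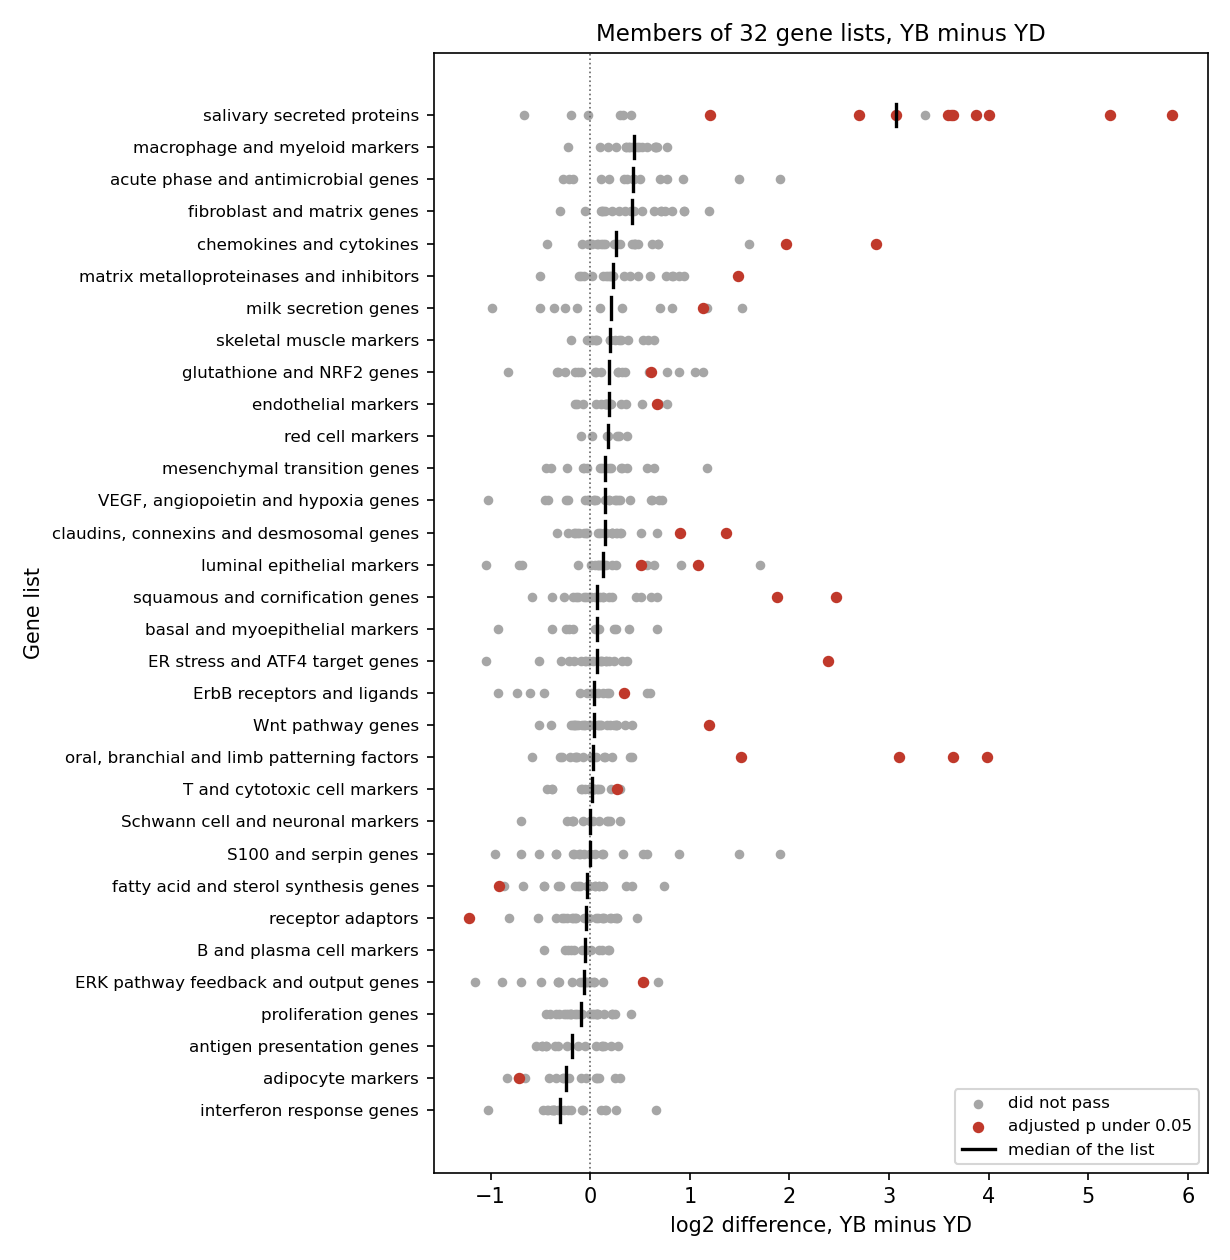
Difference YB minus YD on the log2 scale (horizontal axis) of each measured member of 32 gene lists, ordered by median; red points passed, grey points did not, and the black bar is the median of the list. Only the salivary list has a median past 1, at 3.07, and the red points of the patterning list lie between 1.52 and 3.99 while its median is 0.03.

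Svopl, a transporter-like protein, was not well above background on any of the 4 YD arrays and well above it on all 4 YB arrays. Its levels were 1.18 and 0.95 in YB and 0.08 and 0.13 in YD, with a fitted difference of 0.96 (limma, adjusted p = 0.00295). The YD level of such a gene is only a bound, so no fold is given. Slc6a19, an amino acid transporter with the same pattern of background, had a fitted difference of 0.20 and did not pass (adjusted p = 0.486).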

How the data were processed

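The 24 scanner files hold spot intensity, local background intensity and processed intensity for both channels, and a log10 ratio of red over green, per the file headers (Agilent Feature Extraction). The authors also deposited 1 log ratio for each pool and probe, read here as log2 and made with RMA, limma and R 2.3.0 according to the submitters' processing notes. The base of these logarithms is not stated, so that reading is an assumption. Deposited medians ran from -0.00222 to 0.0147. The tumour channel was read from 19 probes of 13 mammary tumour genes, and deposited ratios correlated with the ratios so turned at r = 0.957 to 0.967 across probes.

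Intensities were corrected by normexp (offset 50) and loess within arrays in limma 3.58.1 (R 4.3.3), flagged spots were removed, and each dye-swap pair was turned and averaged. A probe was kept if at least 4 arrays called its tumour channel well above background. The brightest probe stood for a gene. Symbols came from RefSeq by accession for 20816 of 41174 probes and by symbol or synonym for 4991 and 5240. A model of 6 strain means was fitted to 12 pools, with 6 residual and 1.76 prior degrees of freedom, and tested on simulated data. The genes named are the 15 largest rises and falls that passed at 0.05, were at least 1 in size on the log2 scale and had pools apart, signal above background and an ordinary symbol, then Erbb2, up to 4 passing members of each list (where none, up to 2 of smallest p) and genes at background on every array of 1 strain. Some further members were named after their values were seen, and 1 member of the patterning list is not reported here. The strains, lists and rules were chosen with earlier results of these data known. Ratios near 0 of dim probes are compressed by the offset, so their folds are understated.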

Additional observations from a re-analysis of the deposited data

How the results depend on the processing

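In all, 30 alternative settings were run, and the day of scanning was not run because the headers used here do not give it. The number of genes that passed (1078; 939 higher, 139 lower; 153 by 2-fold or more) ran from 83 to 1534 over the fits that left out 1 pool, from 77 to 1214 for those higher, 6 to 320 for those lower and 53 to 216 for 2-fold changes. In these fits the lone pool of a strain is assumed to vary like the others. With only the YB and YD pools 4 passed, all higher and 2-fold or more, and 0 lower. With the day of image reading as a fixed term 6 passed, all higher and 2-fold, and 0 lower, and with YC pool 2 placed by its first array 19 passed, 19 higher, 0 lower and 18 by 2-fold. With that term and only the YB, YC and YD pools 0 passed (limma; 874 at an unadjusted p under 0.05). The day as a random block gave 1824, 1483 higher and 341 lower. Median centring gave 668, 611 higher and 57 lower. The first array of each pair gave 428, 356 higher and 72 lower, and the second 709, of which 57 lower; each mixes dye and strain. The deposited ratios gave 300 lower and 358 by 2-fold, with 75.9% of calls higher against 87.1% in the main analysis. The replicate number as a block gave 968 genes, 868 of them among the 1078; the labels do not pair the pools by number, and the YB and YD deviations of same-numbered pools correlated at 0.129 across genes. The YC pool 2 placement, the 3-strain fit and the fit without both NYPD pools were chosen after seeing the data. Direction reversed for Pik3cg (0.56), Egfr (0.20) and Cox6a2 (0.54) with the day as a fixed term, with 12 pools or with the 3 strains, for Cox6a2 (0.17) with YC pool 2 by its first array, for Lbp (-0.28), Ttk (0.028), Hbb-y (-0.0497) and Cox6a2 (0.22) in the deposited ratios, and for Erbb2, which ran from -1.91 without YB pool 2 to 0.43 without YB pool 1. Reference genes alone gave the tumour side of the dyes for 0 of 12 pools. The cause of these changes was not tested.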

Other observations

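Several genes outside the lists and the naming rule also changed 2-fold or more, and these were chosen after their values were seen. Crisp3, a secreted protein gene that neighbours Crisp1 within 10 protein-coding genes, was higher in YB by 2.76 ± 0.22 (limma, adjusted p = 0.00149), and Bpifb5, which lies as close to Bpifb1, by 2.27 ± 0.44 (limma, adjusted p = 0.0338). Galnt6, which starts O-linked glycosylation of mucins, was higher by 2.69 ± 0.23 (limma, adjusted p = 0.00236), and Pigr, the receptor that carries immunoglobulin A into secretions, by 1.47 ± 0.30 (limma, adjusted p = 0.041). Sp8, a limb and craniofacial transcription factor, was higher by 1.65 ± 0.18 (limma, adjusted p = 0.00611) and Gata6, a factor of endoderm, by 1.35 ± 0.21 (limma, adjusted p = 0.018). The other probe of Galnt6 differed by 0.94 and those of Gata6 by -0.02 to 0.03, so for Gata6 the probes disagree. Among genes that fell, Boc, a hedgehog co-receptor, differed by -1.01 ± 0.20 (limma, adjusted p = 0.034). Its other probe differed by 0.00171.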
